A study of Arabidopsis thaliana with 12 samples.

Results

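The transcripts described here are those of the plastid genome, measured by RNA sequencing in roots of Arabidopsis thaliana seedlings. A row of the deposited table was taken when its identifier begins with ATCG, the prefix of plastid genes, and when 3 or more of the 12 libraries reached 0.5 RPKM. RPKM is the number of reads of a gene scaled to its length in kilobases and to the read total of the library. This rule kept 94 of 133 plastid rows, out of 33602 rows in all. Of the 39 rows not kept, 32 were at 0 in every library, which need not mean that their RNA was absent.

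The study compared wild type, labelled WT (accession Col-0), with the quintuple mutant labelled bpc1,2,3,4,6 and called bpc here. Its members BPC1, BPC2, BPC3, BPC4 and BPC6 belong to the BASIC PENTACYSTEINE family of transcription factors, which bind GAGA motifs. Seedlings 10 days old, grown under constant light, were shaken in liquid medium for 1 h with benzyladenine at 5 µM (BA, a cytokinin made by synthesis) or with NaOH as vehicle (0.01% of a 5 N solution). Roots were then cut from 12 pooled seedlings per sample and frozen. The 4 groups, WT with vehicle, WT with BA, bpc with vehicle and bpc with BA, held 3 libraries each, numbered 1 to 3 in the titles. Sample labels differ on the tissue, which 1 field calls seedlings and another calls whole roots, and they do not name the insertion alleles of the mutant. Whether same-group libraries were grown separately is not stated, so the p-values reflect the scatter of these samples alone, and that scatter may be technical.

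Plastids keep a small genome of their own. It encodes subunits of the photosystems, the cytochrome b6f complex, the ATP synthase and the NDH complex, the large subunit of Rubisco, and part of the machinery that transcribes and translates these genes, including ribosomal proteins and tRNAs. A bacterial-type polymerase with plastid-encoded core subunits and nuclear-encoded sigma factors transcribes most photosynthesis genes, and a phage-type polymerase from the nucleus transcribes other genes. Many genes share long precursor RNAs, and plastid messengers lack the long stable poly(A) tails of nuclear ones. Root plastids are mostly non-green, and cytokinin is known for its part in chloroplast development. The libraries here were made with mRNA capture beads, so the levels are those of plastid RNA that remained after capture.

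The table pairs no names with these rows. The steps of the RPKM values gave the exact length of each row, and 60 of the 94 were named because a single gene of the RefSeq plastid annotation (TAIR10.1, 154478 bases) has that length. A further 30 rows share a length with another gene and are described by identifier and candidates, and 4 were left without a match. Among these is ATCG00260, of 72 bases, which was not compared because only 3 libraries were above 0. The 60 named members held 92.4% of the 224595 reads of all members. Among the plastid genes of the annotation, 33 of 131 occur in it a second time, in the inverted repeat. None of the named members is of that kind.

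The coding sequences of 4 short photosystem genes are shown because they stand at opposite ends of a pattern among libraries that is described further on. Capitals mark G and C, and each sequence runs 5′ to 3′ on the coding strand of the RefSeq TAIR10.1 plastid genome. The gene psbM (Pltd:28707-28811, minus strand) and the gene psaJ (Pltd:66929-67063, plus strand) were high in a few libraries. The gene psbJ (Pltd:63538-63660, minus strand) and the gene psbE (Pltd:64071-64322, minus strand) were not high in those libraries. All 4 encode small membrane subunits, psaJ of photosystem I and the other three of photosystem II.
psbM: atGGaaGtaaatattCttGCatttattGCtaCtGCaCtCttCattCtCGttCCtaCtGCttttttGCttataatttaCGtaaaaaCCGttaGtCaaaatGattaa
psaJ: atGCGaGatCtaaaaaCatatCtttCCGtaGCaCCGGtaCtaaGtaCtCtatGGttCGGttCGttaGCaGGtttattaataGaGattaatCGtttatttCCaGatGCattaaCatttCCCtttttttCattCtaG
psbJ: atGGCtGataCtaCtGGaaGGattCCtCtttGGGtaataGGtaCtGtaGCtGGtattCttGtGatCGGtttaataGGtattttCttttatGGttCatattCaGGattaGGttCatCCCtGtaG
psbE: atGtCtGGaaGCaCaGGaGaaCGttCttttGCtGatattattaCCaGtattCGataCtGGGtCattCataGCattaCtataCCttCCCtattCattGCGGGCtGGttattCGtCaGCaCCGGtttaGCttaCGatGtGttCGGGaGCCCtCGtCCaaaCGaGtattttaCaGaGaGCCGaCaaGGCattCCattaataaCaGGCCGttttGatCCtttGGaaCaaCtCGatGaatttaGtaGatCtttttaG
G and C made up 30.5% of psbM, 34.8% of psaJ, 38.2% of psbJ and 42.5% of psbE.

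Library totals implied by the RPKM steps ran from 9427912 to 13951019 reads, and plastid members took 14423 to 25699 reads per library, or 0.124% to 0.262%. WT BA 1 was scaled by the same total as WT vehicle 2, 11653485 reads, and its length-weighted sum was 86.5% of the median, so that its values stand low as deposited. The root markers SHR, SCR, MYB36, CASP1 and EXPA7, of the stele, endodermis and root hairs, summed to 281.6 to 408.2 RPKM in every library. Some of them were lower with BA, as given further on. The genotype labels were checked with BPC1, BPC2 and BPC6, whose summed level was 54.7 to 68.4 RPKM in the WT libraries and 3.12 to 5.96 RPKM in the bpc libraries.

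The plastid transcriptome of these roots was dominated by a few genes. The mean level over the 12 libraries ranged from 0.304 RPKM for petL to 510.7 RPKM for atpE, with a median of 5.08 RPKM. It was above 100 RPKM for 13 members, above 10 RPKM for 35 and under 2 RPKM for 27. The 2 members with most reads, atpB and ycf1, held 38.0% of all member reads, and the top 5 held 65.6%. At the other end, 29 members had fewer than 120 reads over all libraries together, so that their values rest on few counts. Nearest to the limit of the rule were petL and ATCG00260, with third-highest values of 0.893 and 0.996 RPKM and 4 reads each. Just outside it were ccsA (ATCG01040), which acts in cytochrome c assembly, at 0.475 RPKM, and the row ATCG00830, of the length of rpl2, at 0.247 RPKM.

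**Figure D1:**
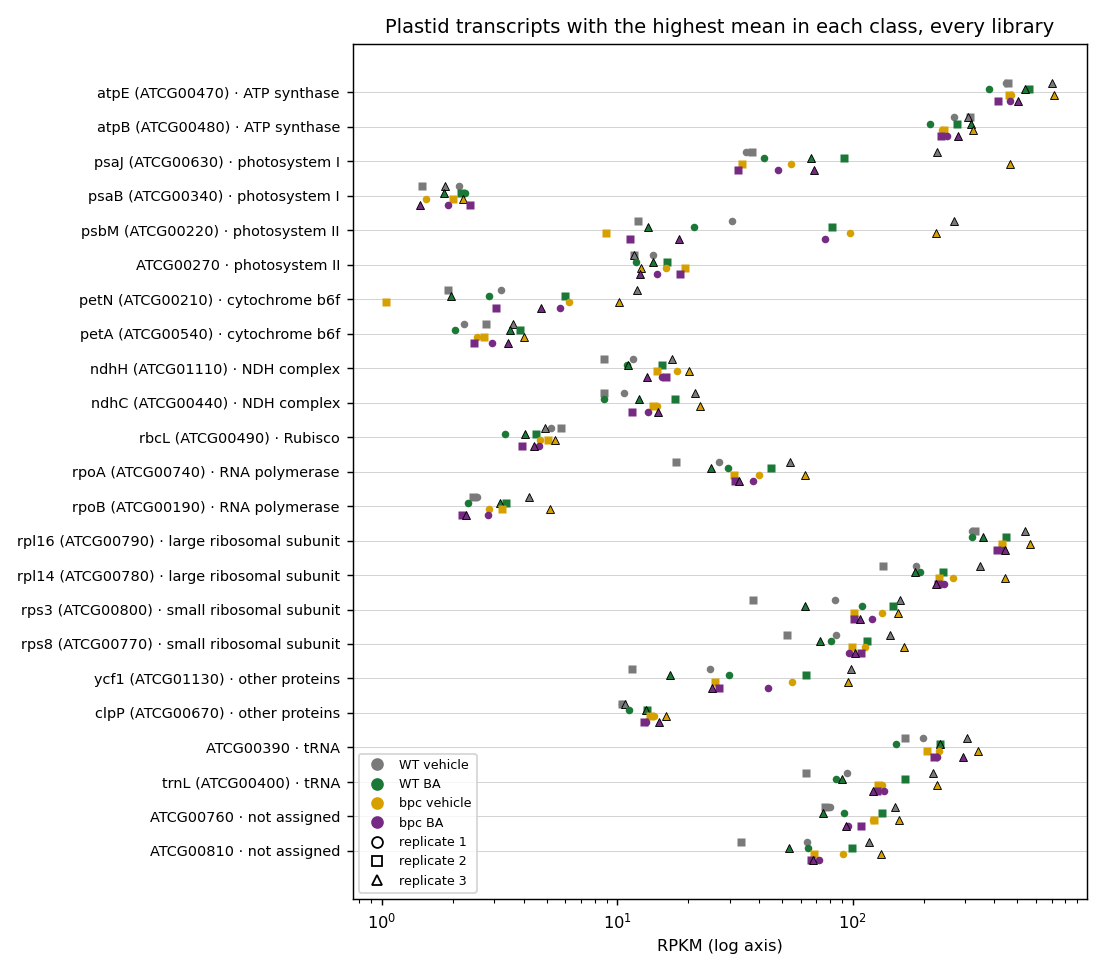
RPKM on a log axis of the 2 members with the highest mean in each class, with Rubisco represented by its single member rbcL; colours mark the 4 groups, shapes the replicate numbers, and black outlines the libraries numbered 3. Levels span from about those of psaB, at 1.44 to 2.36 RPKM, to those of atpE, at 381.3 to 717.1 RPKM, and the black-outlined vehicle points of psaJ and psbM stand to the right of the others.

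Among the 4 members of the ATP synthase, the enzyme that makes ATP from the proton gradient, 2 were abundant and 2 were low. The gene atpE (ATCG00470), of the epsilon subunit, had 449.1, 459.2 and 705.3 RPKM in WT with vehicle and 381.3, 558.9 and 537.9 RPKM in WT with BA. In bpc it had 469.6, 463.7 and 717.1 RPKM with vehicle and 465.4, 415.0 and 506.4 RPKM with BA. The 2 libraries with the highest values are both vehicle libraries numbered 3, and all groups overlap. The gene atpB (ATCG00480), of the catalytic beta subunit, had 268.3, 315.9 and 310.2 RPKM in WT with vehicle and 239.2, 245.0 and 322.9 RPKM in bpc with vehicle. With BA it had 213.8, 276.7 and 318.8 RPKM in WT and 250.8, 236.8 and 281.3 RPKM in bpc, so that these groups overlap as well. The gene atpI, of the membrane part, averaged 9.09 RPKM and atpA, of the alpha subunit, 1.196 RPKM.

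The reading frames of atpB and atpE overlap by 4 bases (Pltd:52660-52663), and reads there could belong to either gene. The stretch around the overlap, printed because the pair holds the most abundant member, reads as follows on the minus strand (Pltd:52642-52681), with the overlap in capitals.
atpB-atpE junction: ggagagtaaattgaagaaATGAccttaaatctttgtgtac
Of the 60 named members, 5 overlap another annotated plastid gene, namely psbC, atpE, atpB, rps3 and ndhF. No source used here gives the strand setting of the authors' counting.

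Photosystem genes were mostly low, with psaJ and psbM as the exceptions. The gene psaJ (ATCG00630) had 35.04, 37.5 and 227.5 RPKM in WT with vehicle and 42.0, 91.95 and 66.7 RPKM in WT with BA. In bpc it had 54.8, 33.9 and 464.5 RPKM with vehicle and 48.2, 32.5 and 68.4 RPKM with BA. Both vehicle libraries numbered 3 stand apart from all 10 others, which lie at 32.5 to 91.95 RPKM. The large photosystem I subunits psaA (ATCG00350) and psaB (ATCG00340), which bind the reaction centre chlorophylls, averaged 1.33 and 1.93 RPKM.

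In photosystem II, psbM (ATCG00220) had 30.7, 12.3 and 269.8 RPKM in WT with vehicle and 21.2, 81.5 and 13.4 RPKM in WT with BA. In bpc it had 97.3, 8.90 and 226.8 RPKM with vehicle and 75.9, 11.3 and 18.2 RPKM with BA. The highest libraries were again those numbered 3 with vehicle, and every group spread widely, the lowest and the highest library of bpc vehicle being number 2 and number 3. The rows ATCG00270 and ATCG00020 both have the length of psbA and psbD, which encode the D1 and D2 proteins of the reaction centre, and cannot be told apart by it. They averaged 14.5 and 4.86 RPKM. The gene psbC (ATCG00280), of an antenna protein, had 6.22 to 12.0 RPKM over all libraries, and psbE (ATCG00580), of a cytochrome subunit, had 3.23 to 9.46 RPKM.

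The large subunit of Rubisco, rbcL (ATCG00490), which fixes CO2, was at a low level in these roots. It had 5.23, 5.78 and 4.90 RPKM in WT with vehicle and 3.34, 4.498 and 4.05 RPKM in WT with BA. In bpc it had 4.68, 5.06 and 5.44 RPKM with vehicle and 4.64, 3.94 and 4.42 RPKM with BA. Each BA group lay below its vehicle group without overlap. In the cytochrome b6f complex, which passes electrons between the photosystems, petN averaged 4.92 RPKM and petA, of cytochrome f, 3.01 RPKM. Members of the NDH complex, which cycles electrons around photosystem I, averaged 1.28 to 14.4 RPKM. Their highest were ndhH (ATCG01110) at 8.78 to 20.2 RPKM and ndhC (ATCG00440) at 8.75 to 22.4 RPKM.

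Genes of the plastid ribosome and polymerase ranged from among the most abundant to the low. The ribosomal protein gene rpl16 (ATCG00790) had 320.4, 331.0 and 539.9 RPKM in WT with vehicle and 320.1, 446.9 and 358.2 RPKM in WT with BA. In bpc it had 432.8, 431.9 and 566.8 RPKM with vehicle and 435.8, 409.0 and 445.3 RPKM with BA. The highest value in either genotype is that of vehicle library 3, and the groups overlap. Its neighbour rpl14 (ATCG00780) had 185.5, 133.9 and 347.8 RPKM in WT with vehicle and 267.6, 232.6 and 443.3 RPKM in bpc with vehicle. With BA it had 193.9, 242.8 and 183.7 RPKM in WT and 244.5, 229.7 and 225.6 RPKM in bpc. Each bpc vehicle library stood above the WT vehicle library of the same number, although the groups as wholes overlap.

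All 7 named members from rpoA to rps19, which lie side by side at plastid positions 77901 to 84283, were abundant, with means of 36.2 to 419.9 RPKM. In that block, rps3 (ATCG00800) averaged 110.3 RPKM and rpoA (ATCG00740), of the polymerase alpha subunit, 36.2 RPKM. The other polymerase genes were far lower per length, rpoB (ATCG00190) at 3.04 RPKM, rpoC1 at 1.66 RPKM and rpoC2 at 1.47 RPKM. Outside these complexes, ycf1 (ATCG01130), which encodes a large protein of the plastid envelope, averaged 43.1 RPKM and clpP (ATCG00670), the catalytic subunit of the Clp protease, 12.9 RPKM. Of the 21 rows assigned to the tRNA class by length, ATCG00390 averaged 235.0 RPKM and trnL (ATCG00400) 132.6 RPKM, while the class median was 3.12 RPKM. Among the 16 rows left without a class, ATCG00760, of the length of petG, psaI, rpl36 and rps12, averaged 108.9 RPKM and ATCG00810, of the length of petD and rpl22, 77.4 RPKM.

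The summed level of the 94 members set 2 libraries apart. It was 2695, 2373 and 5095 RPKM in WT with vehicle and 2587, 3889 and 2839 RPKM in WT with BA. In bpc it was 3535, 3062 and 5564 RPKM with vehicle and 3312, 2950 and 3276 RPKM with BA. The libraries numbered 3 with vehicle were the highest of their group in both genotypes, and WT BA 2 was the next highest of the 12. In bulk samples, fewer plastids or fewer cells of a type and less plastid RNA per cell cannot be told apart. The mitochondrion-encoded rows did not show this order. Their sum was 4503, 4315 and 4299 RPKM in WT with vehicle and 5602, 6786 and 4785 RPKM in bpc with vehicle. Number 3 was the lowest of each, in WT by a small margin.

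**Figure D2:**
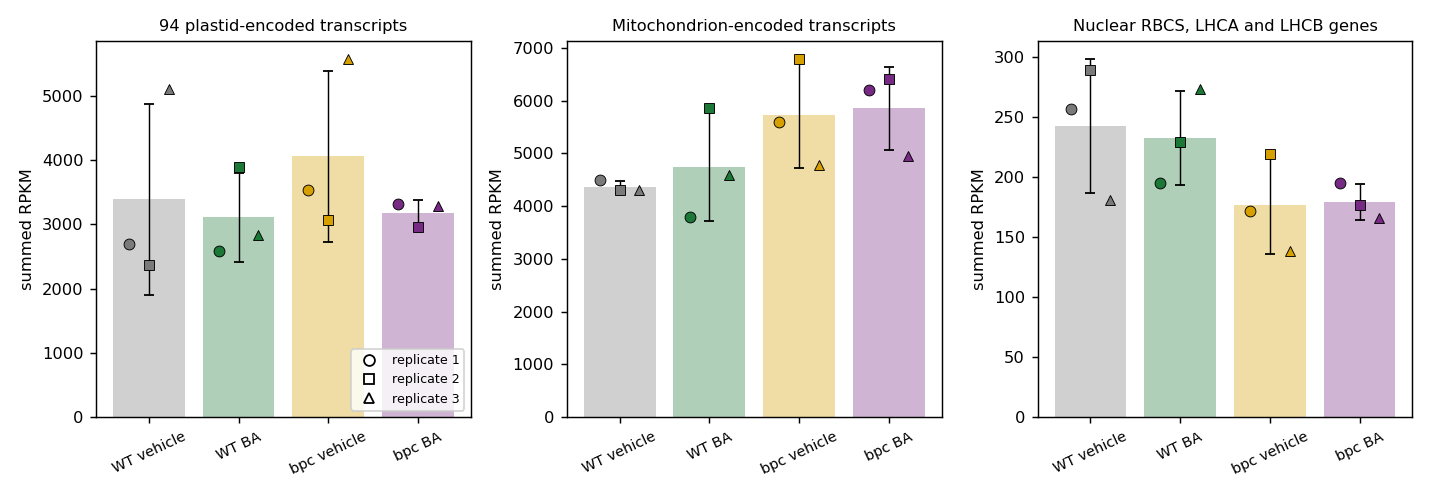
Summed RPKM per library of the 94 plastid members, of the mitochondrion-encoded rows and of 21 nuclear photosynthesis genes; bars are group means, error bars the SD of 3 libraries, and shapes the replicate numbers. In the plastid panel the vehicle triangles stand at 5095 and 5564 RPKM, above all other libraries, and in the nuclear panel the vehicle triangles are the lowest of their groups at 180.8 and 138.4 RPKM.

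Nuclear photosynthesis genes, the RBCS genes of the small Rubisco subunit and the LHCA and LHCB genes of the light-harvesting antenna, stand for green tissue here. Their sum over 21 genes was 257.1, 289.7 and 180.8 RPKM in WT with vehicle and 172.0, 219.3 and 138.4 RPKM in bpc with vehicle. It was 195.1, 229.6 and 273.4 RPKM in WT with BA and 195.4, 176.8 and 166.0 RPKM in bpc with BA. The libraries with most plastid RNA thus had the lowest sum of these genes in both vehicle groups.

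The rise in the libraries numbered 3 was uneven between members. WT vehicle 3 was above both other WT vehicle libraries in 65 of the 94 members, bpc vehicle 3 above both others in 68, and the rise was common to both genotypes in 53 (56.4%). Among 20636 nuclear genes fitted the same held for 28.5%. Of all 94 members, 63 had their highest value of the 12 libraries in a vehicle library numbered 3. Among 49 members with at least 240 reads, the median ratio of library 3 to the mean of libraries 1 and 2 was 1.78 in WT and 1.50 in bpc, and it was above 1 for 42 members in each genotype.

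The ratio differed widely between members. That for psaJ was 6.27 in WT and 10.5 in bpc, and that for psbM was 12.6 and 4.27. It was 5.41 and 2.36 for ycf1, 5.21 and 2.46 for ndhF, 4.39 and 2.45 for rpl32, and 3.75 and 2.59 for rps19. The members that were lower in library 3 included psbC, at 0.674 and 0.681, psaA, at 0.663 and 0.602, and, with 179 reads in all, psbE, at 0.592 and 0.580. Near 1 were clpP, at 1.03 and 1.14, and rbcL, at 0.891 and 1.12. Across the 49 members the log2 ratios of the genotypes, which share no library, had a Pearson r of 0.79 and a Spearman rho of 0.80, a description over genes that are not independent replicates.

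**Figure D3:**
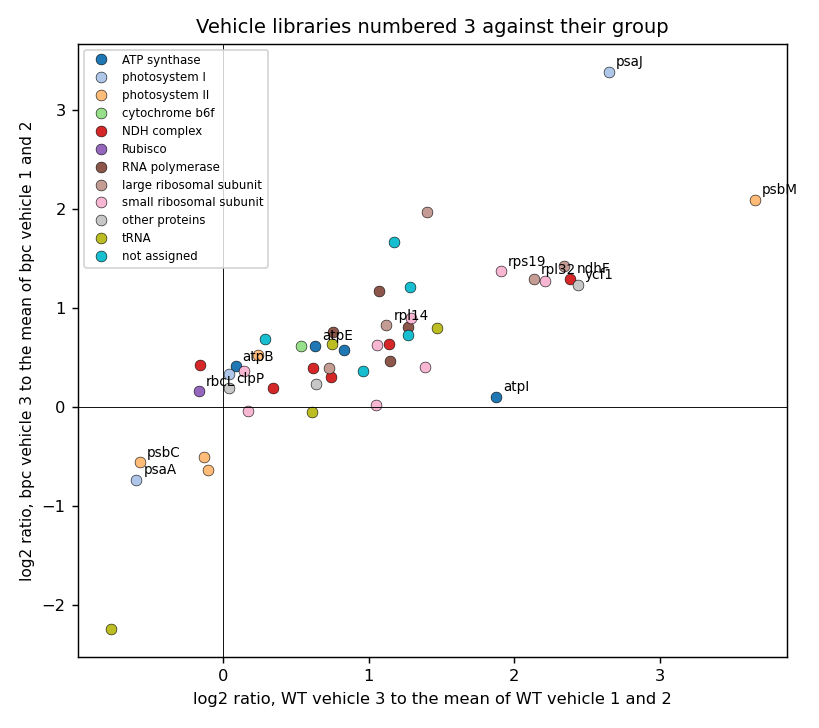
For each of 49 members with at least 240 reads, the log2 ratio of vehicle library 3 to the mean of vehicle libraries 1 and 2, in WT on the x axis and in bpc on the y axis, coloured by class. Most points lie in the upper right region, psaJ and psbM farthest out, with psbC and psaA below 0 on both axes.

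These ratios moved with the base composition of the genes. G and C content is known for the 60 named members, 63.8% of the 94, so a check over the whole set is void, and the values below describe 47 named members with at least 120 reads, which hold 92.1% of member reads. Across them, G and C content had a Spearman rho of −0.75 with the ratio in WT and −0.54 with that in bpc, against −0.29 and −0.18 for exon length. The 15 members under 35% G and C had a median ratio of 3.75 in WT and 2.03 in bpc. In the 14 members over 40% the medians were 1.08 and 1.298. The printed sequences were chosen for their place in this pattern, with ratios of 0.922 and 0.882 for psbJ, and do not support it. Not all members of low G and C content were high, psbI, at 34.2%, having ratios of 2.97 in WT and 0.846 in bpc, and accD, at 33.3%, ratios of 1.56 and 1.17.

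Other libraries also differed along this axis. On the log2(RPKM + 0.5) scale, the members under 35% G and C had a median of 1.25 above their own mean over the 12 libraries in WT vehicle 3, 0.96 in bpc vehicle 3, 0.57 in WT BA 2 and −1.31 in WT vehicle 2. For members over 40% these medians were 0.08, 0.25, 0.07 and −0.29. In these 4 libraries the 279 nuclear genes under 35% G and C moved the same way by less, with medians of 0.23, 0.15, 0.19 and −0.27. The 12095 nuclear genes over 40% had medians of −0.01, −0.01, 0.01 and 0.02. The signs were opposite in WT vehicle 1, bpc vehicle 2, bpc BA 1 and bpc BA 2. There the medians under 35% were −0.34, −0.42, 0.14 and −0.31 for plastid members and 0.01, 0.04, −0.02 and 0.01 for nuclear genes. In WT BA 1, WT BA 3, bpc vehicle 1 and bpc BA 3 the signs were the same. The part of base composition in the differences between libraries was not tested.

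**Figure D4:**
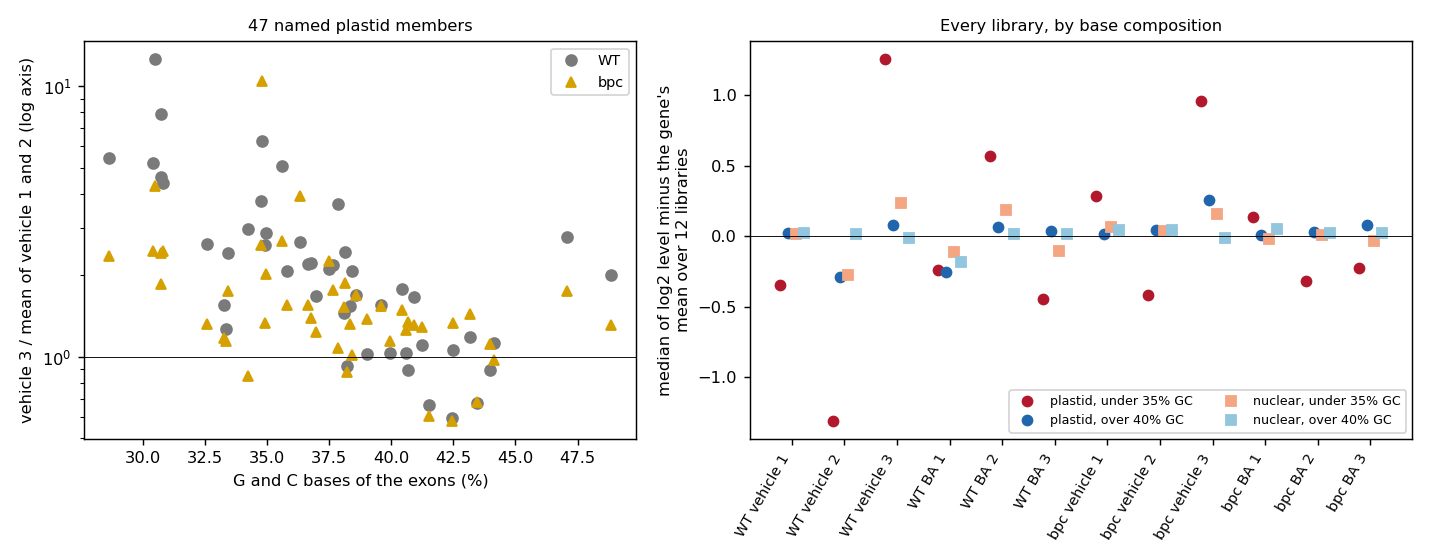
Left, the ratio of vehicle library 3 to the mean of libraries 1 and 2 on a log axis against the G and C content of the exons, for 47 named members in WT and bpc. Right, for each library, the median over genes of the log2 level minus the gene's own mean, for plastid members and nuclear genes under 35% and over 40% G and C. The red points reach 1.25 in WT vehicle 3 and −1.31 in WT vehicle 2, while the others stay within −0.29 to 0.25.

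The first comparison asks which transcripts respond to cytokinin within 1 h in wild type. None of the 94 members passed the limma test at an adjusted p under 0.05, against 3.85% of all 20776 genes called higher and 4.83% called lower. At an unadjusted p under 0.05 there were 2 members, 1 higher and 1 lower, against 18.5% of all genes. The median log2 difference was 0.05 for the members and −0.05 for all genes, and 54 members lay above 0. These medians hold WT BA 1 as deposited, and with TPM the members' median was 0.10. The groups did not overlap in 5 of the 94 members, while this held for 20.9% of all genes, and 8.68% of all genes were called. The lowest p was that of rbcL, whose values by library are above, with 3.96 ± 0.59 RPKM with BA against 5.30 ± 0.44 RPKM with vehicle (SD, n = 3). Its log2 difference of −0.39 ± 0.13 did not pass the limma test (adjusted p = 0.1), nor under any alternative. The lowest of its values is that of WT BA 1, the library scaled low, and with TPM the difference was −0.35 (limma adjusted p = 0.098, against 0.074 to 0.32 over all alternatives).

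The plastid values of this comparison moved with single libraries. The members' median log2 was 0.28 without WT vehicle 3, −0.21 without WT vehicle 2 and −0.11 without WT BA 2. Summed member levels were 0.917 times as high with BA as with vehicle, and 1.23 times without the vehicle libraries numbered 3. These sums hold WT BA 1 as deposited, scaled low. Without WT vehicle 3 alone limma called 0 members higher with BA, and without bpc vehicle 3 as well, a library outside this comparison that adds to the shared estimate of the spread, it called 3. One of them was atpI (ATCG00150), with 4.87, 2.29 and 13.1 RPKM in WT with vehicle and 6.64, 15.4 and 5.77 RPKM in WT with BA, at log2 1.21 ± 0.34 (adjusted p = 0.042). The others were ATCG00460, of tRNA length, and ATCG00650, of the length of ndhE and rps18, at 1.11 ± 0.32 and 0.63 ± 0.17 (adjusted p = 0.043 and 0.036 by limma).

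In bpc, 1 of the 94 members was called lower with BA and 0 were called higher, against 4.36% and 4.24% of all genes. It was ATCG00140, which has the length of atpH and psaC, a proton-ring subunit of the ATP synthase and an iron-sulfur subunit of photosystem I. It had 4.57, 6.84 and 3.72 RPKM with vehicle and 1.39, 3.35 and 1.73 RPKM with BA in bpc, and 1.75, 2.09 and 3.64 RPKM with vehicle in WT. The bpc groups did not overlap, and the log2 difference was −1.09 ± 0.31 (limma adjusted p = 0.044). It rests on 12, 18 and 9 reads against 4, 9 and 4, and the call was lost in 8 of the 12 omissions of a single library. These were bpc vehicle 1 or 2 and bpc BA 1 or 3, at log2 differences from −1.14 to −0.87, and WT vehicle 2 and each WT BA library, which leave the difference as it is and change the shared spread. Over all alternatives its limma adjusted p was 0.013 to 0.19. The test of the difference between the genotypes did not pass for it (log2 −1.11 ± 0.43, limma adjusted p = 1).

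The median over members was −0.20 in bpc, against 0.00 over all genes, with 73 members below 0, and it was −0.06 without bpc vehicle 3 and −0.34 without bpc vehicle 2. At an unadjusted p under 0.05 there were 4 members, 3 of them lower, against 18.3% of all genes. The groups did not overlap in 9 of the 94 members and in 26.3% of all genes, of which 8.59% were called. Among the 9 were rpoB, at 2.85, 3.22 and 5.15 RPKM with vehicle and 2.82, 2.19 and 2.27 RPKM with BA, and rbcL. The log2 difference of rpoB, −0.50 ± 0.23, did not pass the limma test (adjusted p = 0.27), nor did that of rbcL, −0.20 ± 0.13 (adjusted p = 0.5). For psaJ the log2 difference was −1.0 ± 0.86 (adjusted p = 0.63 by limma), and it turned to 0.14 without bpc vehicle 3.

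With vehicle, 77 of the 94 members had a higher fitted level in bpc than in WT, and none of these differences was called. No member passed the limma test, against 0.91% of all genes called higher and 1.08% called lower, and 6 members had an unadjusted p under 0.05, 5 of them higher, against 13.4% of all genes. The median was 0.30 over the members and 0.04 over all genes, and the 46 mitochondrion-encoded rows fitted had a median of 0.33. The members' median fell to 0.09 without WT vehicle 2 and 0.12 without bpc vehicle 3, and it was 0.46 without bpc vehicle 2 and 0.53 without WT vehicle 3. The summed level was 4054 ± 1329 RPKM in bpc and 3387 ± 1488 RPKM in WT (SD, n = 3), a ratio of 1.197, and it was 1.302 without both libraries numbered 3. Without bpc vehicle 3 alone it was 0.974, below 1, and without WT vehicle 3 alone 1.60. The vehicle groups did not overlap in 3 of the 94 members and in 16.7% of all genes, with 1.99% of all genes called.

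The smallest p here was that of clpP. It had 10.4, 10.5 and 10.8 RPKM in WT with vehicle and 14.3, 13.8 and 16.0 RPKM in bpc with vehicle. With BA it had 11.2, 13.3 and 13.3 RPKM in WT and 13.2, 13.0 and 15.1 RPKM in bpc. The vehicle groups do not overlap, the BA groups do, and the log2 difference with vehicle was 0.46 ± 0.11 (limma adjusted p = 0.052). Without any block, clpP passed the limma test with TPM (adjusted p = 0.023), a scaling to the nuclear total (0.022) and quantile normalization (0.038). A minimum of 2 RPKM (limma adjusted p = 0.049) and leaving out WT BA 1, the library scaled low, (0.035) also gave a call. In the other settings without a block it did not pass. Same-numbered vehicle libraries of the genotypes deviated together. With the number as a block clpP passed the limma test (adjusted p = 0.041, in a range of 0.022 to 0.18 over all alternatives). That block was chosen from these same data and spans all 4 groups, though in the other comparisons the numbers do not pair the samples. With that block and only the vehicle groups fitted, clpP (adjusted p = 0.045 by limma) and rpl14, at 0.56 ± 0.09 (adjusted p = 0.032), passed, where rpl14 had an adjusted p of 0.47 without it. This setting was added after seeing the data, so the calls made with the block are a description.

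With BA, the summed plastid level of bpc and WT differed by less than the spread between libraries, at 3179 ± 199.4 RPKM in bpc and 3105 ± 690.3 RPKM in WT (SD, n = 3). WT BA 1, the library scaled low, had the lowest of these WT sums, at 2587 RPKM, so the direction of this difference is not secure. The medians below also hold that library as deposited. None of the members passed the limma test, against 1.29% of all genes called higher and 1.03% called lower, and 2 members had an unadjusted p under 0.05, both higher, against 15.2% of all genes. The median log2 difference was 0.05 over members and 0.09 over all genes. The mitochondrion-encoded rows had a median of 0.32 in this comparison. Of the 46 fitted, limma called 1 higher in bpc and 0 lower here, and none in the other comparisons or the interaction. The BA groups did not overlap in 5 of the 94 members and in 25.6% of all genes, with 2.32% of all genes called.

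The genotype by BA interaction asks whether the cytokinin response differs between the genotypes. No member passed the limma test for it, nor did more than 1 of all genes (0.00481% called higher, 0% called lower), and 3 members had an unadjusted p under 0.05, each with a lower response in bpc, against 1.63% of all genes. The members' median was −0.25, against 0.05 over all genes, and ranged from −0.56 without WT vehicle 3 to −0.04 without WT vehicle 2. The BA response in bpc and the genotype difference with vehicle share the bpc vehicle libraries, and the interaction uses all 12, so that their values are not independent of each other.

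**Figure D5:**
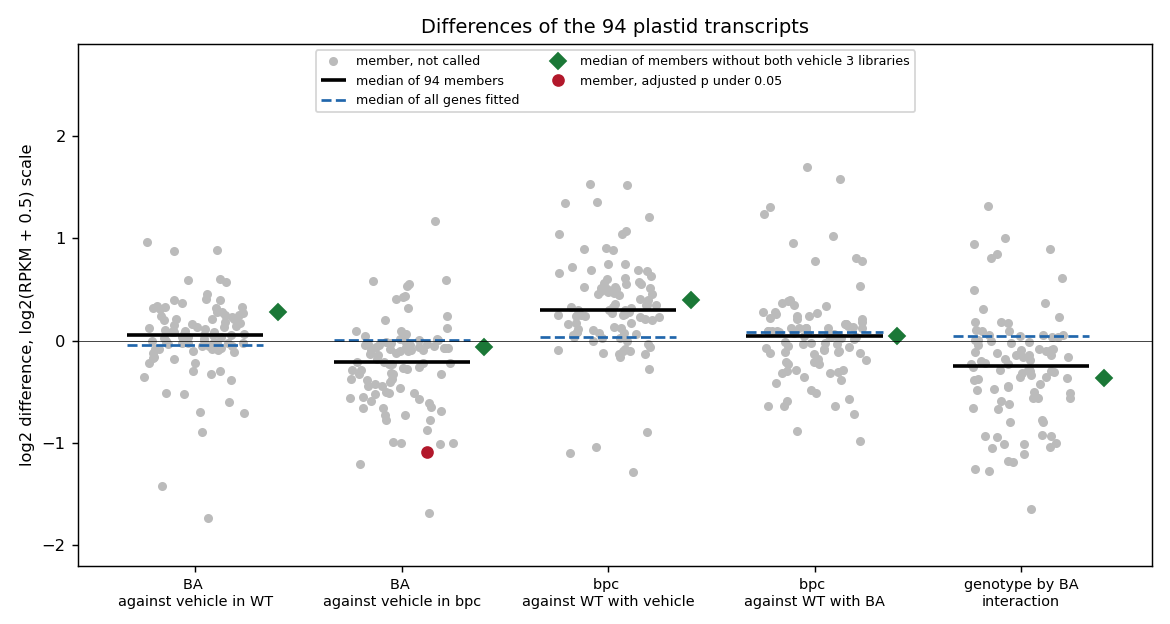
Log2 differences of the 94 members in the 4 comparisons and the interaction, on the log2(RPKM + 0.5) scale; black bars mark the members' medians, dashed blue bars the medians of all genes fitted, and green diamonds the members' medians without both vehicle libraries numbered 3. The single red point is ATCG00140, called lower with BA in bpc at −1.09, and the diamond for BA in WT stands at 0.28 above a bar at 0.05.

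The authors' deposited tables, from a count model, listed 67 of the 94 members and made more calls. In the authors' deposited table for BA in WT, 1 member had an FDR under 0.05, against 8.99% of all genes higher and 9.84% lower. It was psaJ, at a log fold change of 0.62 (FDR 0.0265 in the authors' deposited table). From RPKM its log2 difference had the opposite sign, at −0.075 ± 0.856 (limma adjusted p = 0.98). For psaJ, WT vehicle 3 held 309 reads, against 66 and 59 in WT vehicle 1 and 2. For BA in bpc, the authors' deposited table had 10 of the 67 listed members lower and 0 higher, against 13.3% and 10.6% of all genes. They included psaJ at −1.89 (FDR 3.42e-18), rpl14 at −0.43, rpoB at −0.60, rps19 at −0.68 and atpE at −0.25 in the authors' deposited table. For each of these named genes, bpc vehicle 3 was the highest of the 12 libraries. From RPKM, none of them was called for BA in bpc (limma adjusted p from 0.27 to 0.69). For psaJ, bpc vehicle 3 held 616 reads, against 79 and 49 in bpc vehicle 1 and 2. For bpc against WT with vehicle, the authors' deposited table had 6 members higher and 0 lower, against 6.38% and 6.75% of all genes. They were rpl14 at 0.42, psaA at 0.85, ndhH at 0.44, clpP at 0.43, ATCG01050 at 0.91 and rpl16 at 0.21 in the authors' deposited table.

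Library weights were fitted, for 6987 genes of high level, that best turn the RPKM values into the fold changes of each authors' deposited table. They describe the match between the tables, and how the authors' values came to differ was not tested. For BA in bpc all 6 libraries had about equal fitted weight, 32.3% to 34.2% of their group. For BA in WT, WT vehicle 1, 2 and 3 had fitted weights of 43.7%, 42.0% and 14.4%. For bpc against WT with vehicle they had 33.1%, 30.9% and 36.1%, and bpc vehicle 1, 2 and 3 had 36.3%, 37.1% and 26.6%. In the authors' deposited table for BA in WT the median log fold change of the 67 listed members was 0.28. From RPKM the median log2 difference of the same 67 was 0.06 with all libraries and 0.32 without WT vehicle 3.

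Nuclear genes that serve plastid gene expression were compared in the same fit. The list of plastid transcription, with the sigma factors SIG1 to SIG6, the polymerases RPOTp and RPOTmp and the polymerase-associated proteins, had 19 measured genes. None of them was called by limma in any of the 4 comparisons or the interaction, with list medians of −0.13 to 0.10. At an unadjusted p under 0.05 there were 1 lower for BA in WT, 1 lower for BA in bpc, 2 higher for bpc with vehicle and 1 higher for bpc with BA. Of all genes, 18.5%, 18.3%, 13.4% and 15.2% had such a p in these comparisons. The sum of the list was 93.0 to 127.0 RPKM per library. Of 6 genes of plastid RNA processing and decay, 0 were called by limma and 0 had an unadjusted p under 0.05.

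None of the 17 measured nuclear photosynthesis genes was called by limma either, with medians of −0.35 to 0.15. At an unadjusted p under 0.05, 6 were lower in bpc with vehicle and 6 lower and 1 higher in bpc with BA. The shares of all genes there, in either direction, were 13.4% and 15.2%. For BA there were 2 lower in WT and 1 higher in bpc, against 18.5% and 18.3% of all genes. Among 3 measured greening regulators, CGA1 (AT4G26150), a cytokinin-inducible GATA factor, was called higher with BA in bpc. It reached the limit of 0.5 RPKM in 3 libraries only through groups with BA, where it is high, so that a gene kept in this way had to differ and the calls are a description. It had 0.0718, 0.143 and 0.234 RPKM with vehicle and 1.58, 1.47 and 1.22 RPKM with BA there, a log2 difference of 1.57 ± 0.23 (limma adjusted p = 0.00062). In WT it had 0.135 ± 0.173 RPKM with vehicle and 0.492 ± 0.108 RPKM with BA (SD, n = 3), at 0.67 ± 0.23 (limma adjusted p = 0.099). With BA it was called higher in bpc than in WT, by 0.96 ± 0.23 (limma adjusted p = 0.048), a call that was lost when any 1 of the 6 BA libraries, WT vehicle 3 or bpc vehicle 1 or 2 was left out, at log2 differences of 0.88 to 1.04. It was also lost with the replicate number as a block (0.96), quantile normalization (0.91), TPM (1.05) and a pseudocount of 0.1 (1.37). The call for BA in bpc held in the settings that fitted CGA1 (1.07 to 2.65), which adds no support to a gene kept through its own change. With a minimum of 2 RPKM the gene was not fitted. The test of the difference between the responses did not pass for it (0.90 ± 0.32, limma adjusted p = 1). Of the 5 root markers, 2 were called lower with BA by limma in each genotype, against 4.83% of all genes in WT and 4.36% in bpc. The markers had medians of −0.54 in WT and −0.53 in bpc, and their part in the plastid values was not tested.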

How the data were processed

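Roots were sequenced in 12 libraries, grouped by their titles. Per the submitters' processing notes, the authors worked with the build TAIR10 and with edgeR 3.0, featureCounts, SAMtools 0.1.18, Bowtie 1.1.0, TopHat2 2.0.11 and FastQC. They deposited RPKM values for 33602 genes and, per the file headers, comparison tables that give p-values and FDR, a likelihood-ratio score, the mean log2 CPM and a log2 fold change per gene. Read totals and gene lengths were recovered from the steps of the RPKM values, and coordinates and sequences came from RefSeq TAIR10.1. The order of the names so found was checked against the order of the identifiers, which rose in all 60 steps between 61 rows with 1 position.

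On the log2(RPKM + 0.5) scale, limma 3.58.1 in R 4.3.3 was fitted to the 4 groups with an intensity trend and 8 residual degrees of freedom, for the 20776 genes that reached 0.5 RPKM in 3 or more libraries. P-values were adjusted over all of them by the Benjamini-Hochberg method at 0.05. Fold changes on this scale understate those of low genes. The test was run on simulated data first. Named genes are the 2 highest members of each class, members past the threshold, rows nearest to the limit of the rule and list members past the threshold. Root markers and mitochondrion-encoded rows past the threshold are counted but not named as such. Others were named after their values were seen. The members and lists were chosen with earlier results of these data known.

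The deviations of same-numbered vehicle libraries of WT and bpc from their group means correlated over all genes at 0.31, 0.37 and 0.63, so the numbers were taken to pair these samples, from the data and not from a stated batch. Alternatives were other pseudocounts, filters, scalings, a replicate block, and leaving out libraries. Counts of reads without molecular identifiers are not independent molecules. Values of some members are not reported here.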

Additional observations from a re-analysis of the deposited data

How the results depend on the processing

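Counts of called members were small and moved by 1 to 3 with the settings. For BA in WT, 3 members were called higher without both vehicle libraries numbered 3 and 0 without either alone. For BA in bpc, the single lower call was lost, leaving 0, with no filter, no trend, TPM, a nuclear total or only the groups of the contrast, and 0 to 1 were called lower and 0 to 1 higher when single libraries were left out. ATCG00140 then ranged from −1.40 to −0.87. For bpc against WT with vehicle, 1 member, clpP, was called higher with a minimum of 2 RPKM, quantile normalization, TPM or a nuclear total, 1, ATCG00460, with both vehicle libraries numbered 3 left out, and 0 to 3 when single libraries were left out. Those 3 arose without WT vehicle 3 and were atpI, ATCG00110 and ATCG00460.

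The ratio of summed levels for BA in WT, 0.917, was 0.797 to 1.23 when single libraries were left out and 1.23 without both vehicle libraries numbered 3. For bpc against WT with vehicle, 1.197 became 0.974 without bpc vehicle 3 and 1.60 without WT vehicle 3. The difference of psaJ with BA was −1.74 to 0.14 in bpc when single libraries were left out, turning positive without bpc vehicle 3, also with both vehicle libraries numbered 3 left out. In WT it was −0.54 to 0.80, turning positive without WT vehicle 3 or without both, and at 0.22 without WT BA 1. The cause was not tested.

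With the replicate number as a block, 1 member (clpP) was called higher in bpc with vehicle, and 2 with the block and only the vehicle groups, a setting added after seeing the data. The block changed no other count of members, and it ended the call of CGA1 between the genotypes with BA (0.96). In the other comparisons the numbers do not pair the samples, with correlations of −0.28 to 0.16, and 9 of 12 libraries correlated best with a library of their own number. Genes with few reads limit the rest, 29 members having under 120 reads in all.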
